A study of Mus musculus with 16 samples.

Results

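This report describes 9072 silent genes, a class set by the absence of acetylation at lysine 27 of histone H3 (H3K27Ac), and the way H3K4Me1 and H3K27Me3 were arranged at their starts in mouse embryonic stem (ES) cells. A gene was called silent when no H3K27Ac region of either the female or the male list lay within 5 kb of any of its annotated transcription start sites (TSSs). The rule took 9072 of 21418 protein-coding genes on chromosomes 1 to 19, or 42.4%. The annotation has 22367 protein-coding genes on all chromosomes. The other 12346 autosomal genes, called genes with H3K27Ac here, served as the comparison.

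The study asked how far male and female cells differ in their chromatin before the gonads form. Its ES cells were F1 hybrids of C57BL/6 and CAST/EiJ mice, in 2 female (XX) lines, BCF3 and BCF4, and 2 male (XY) lines, BCM1 and BCM2, all at passages 7 to 10, undifferentiated, and grown with serum and leukemia inhibitory factor on inactivated mouse embryonic fibroblasts. No other treatment was given. Chromatin immunoprecipitation and sequencing (ChIP-seq) was done for 3 marks in all 4 lines, with 1 IgG and 1 input library per sex.

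The deposited lists hold regions called enriched for a mark, 1 list per sex and mark, each for both lines of that sex. They hold no heights, p-values or reads, they do not separate the parental alleles, and the depth is unknown. No test between groups can therefore be made. The counts and shares below are descriptions, the 95% intervals are exact binomial (Clopper-Pearson) intervals that cover counting error only, and the difference between the female and the male list is the one measure of how far a value repeats. On the autosomes the H3K4Me1 lists had 38822 (female) and 34459 (male) regions, and the H3K27Me3 lists 18270 and 14977. A region edge can fall only at steps of 200 bp.

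H3K4Me1, a single methyl group on lysine 4 of histone H3, is placed at enhancers and on the flanks of promoters, and marks both active and poised elements. H3K27Me3 is the trimethyl mark laid down by Polycomb repressive complex 2, which holds developmental genes off in ES cells, above all at promoters rich in CpG dinucleotides. Genes of this kind also carry methylation of H3K4 and are known as bivalent or poised. H3K4Me1 was the only form of H3K4 methylation measured here, so genes with H3K4Me1 and H3K27Me3 are not called bivalent below. H3K27Ac sits on the same lysine as H3K27Me3, so that a single histone tail cannot carry both, and it marks active promoters and enhancers.

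The label was checked against gene lists, since silence was read from a missing mark and no RNA was measured in these samples. According to the paper, RNA of these cell lines had been reported before. It lists Mesp1, Gata4 and Pou2f3, all silent by the rule, as expressed more highly in male than in female ES cells. Silent here therefore means no H3K27Ac region near a TSS, not a measured lack of RNA. None of 18 pluripotency genes was silent by the rule, and 1 of 28 housekeeping genes was, B2m, the light chain of class I histocompatibility molecules. B2m carried H3K27Me3 in both lists, 5.40 kb wide in the female and 6.20 kb in the male. It had H3K4Me1 within 2 kb of a TSS in 1 list only. Of 128 developmental transcription factors 102 were silent, as were 1017 of 1081 olfactory receptor genes. Of 18 markers of fibroblasts, the feeder cells of these cultures, 11 were silent and 7 had H3K27Ac. The feeder cells were largely depleted before harvest, according to the study's methods, and their part in the lists was not tested.

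Genes were classed by H3K4Me1 and H3K27Me3 within 2 kb of any TSS, and a mark counted only where the female and the male list both had it. To show what the classes look like in sequence, the 240 bases upstream of the 5′-most TSS follow for 4 silent genes, 1 per class, in mm9 (NCBIM37), with every CpG in capitals. Each is the member of the gene lists whose CpG content was nearest the median of its class.
Grin2a, both marks: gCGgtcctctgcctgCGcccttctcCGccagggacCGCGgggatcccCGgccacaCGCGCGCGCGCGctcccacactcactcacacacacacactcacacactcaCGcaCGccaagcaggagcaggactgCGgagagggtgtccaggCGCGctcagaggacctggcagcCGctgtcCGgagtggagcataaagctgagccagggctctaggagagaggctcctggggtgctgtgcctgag
Nppb, H3K4Me1 alone: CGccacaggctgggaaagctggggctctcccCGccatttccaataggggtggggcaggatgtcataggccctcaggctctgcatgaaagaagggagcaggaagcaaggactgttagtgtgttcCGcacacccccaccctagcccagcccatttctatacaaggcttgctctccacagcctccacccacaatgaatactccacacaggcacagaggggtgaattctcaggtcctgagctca
Grm7, H3K27Me3 alone: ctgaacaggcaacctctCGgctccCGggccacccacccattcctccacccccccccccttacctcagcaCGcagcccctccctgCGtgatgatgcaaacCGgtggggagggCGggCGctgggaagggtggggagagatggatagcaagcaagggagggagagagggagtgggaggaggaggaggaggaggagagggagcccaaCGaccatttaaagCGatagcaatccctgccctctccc
Olfr1221, neither mark: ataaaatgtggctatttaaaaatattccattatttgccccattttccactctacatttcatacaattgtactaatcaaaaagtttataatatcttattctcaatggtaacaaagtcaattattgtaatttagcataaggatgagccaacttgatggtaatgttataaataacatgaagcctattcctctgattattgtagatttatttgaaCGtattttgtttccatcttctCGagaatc

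These 4 stretches lie at chr16:9995015-9995254 (minus strand) for Grin2a, a subunit of the NMDA glutamate receptor, at chr4:147359657-147359896 (plus strand) for Nppb, which encodes brain natriuretic peptide, at chr6:110595335-110595574 (plus strand) for Grm7, a metabotropic glutamate receptor, and at chr2:88952668-88952907 (minus strand) for the olfactory receptor Olfr1221. They hold 19, 3, 9 and 2 CpGs. Over all members the same 240 bases held a median of 11 CpGs at genes with both marks, 4 with H3K4Me1 alone, 7 with H3K27Me3 alone and 1 with neither mark, against 8 over all autosomal genes. No CpG was found in this stretch at 24.8% of genes with neither mark and at 1.35% of genes with both marks.

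Most silent genes carried neither mark, and H3K4Me1 at a silent gene was mostly found together with H3K27Me3. Both marks lay at 1412 silent genes, 15.6% (95% interval 14.8 to 16.3), against a background of 19.1% over all autosomal protein-coding genes and 21.7% of genes with H3K27Ac. H3K4Me1 alone was at 255 silent genes, 2.81% (2.48 to 3.17), against 31.1% and 51.8%, and H3K27Me3 alone at 687, 7.57%, against 3.74% and 0.923%. Neither mark was at 5226 silent genes, 57.6%, against 27.6% and 5.61%. The remaining 1492, 16.4% against 18.5% and 20%, had a mark in 1 list but not in the other and are called list-dependent.

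**Figure D1:**
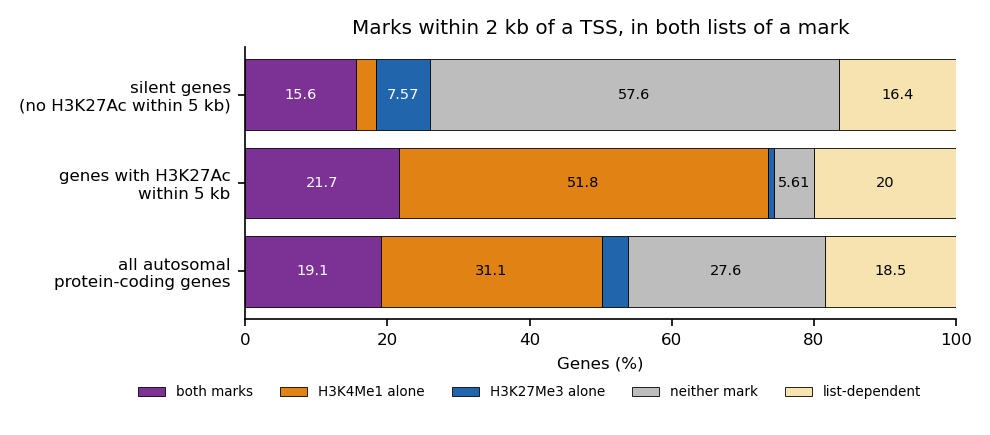
Share of genes (%, horizontal axis) in each class of marks within 2 kb of a TSS, for silent genes (n = 9072), genes with H3K27Ac (n = 12346) and all autosomal protein-coding genes (n = 21418); numbers in the bars are percentages. H3K4Me1 alone takes 51.8% of the genes with H3K27Ac and 2.81% of the silent genes.

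Counted mark by mark, H3K4Me1 lay at 1814 silent genes in both lists, 20%, against 57.3% of all genes and 84.7% of genes with H3K27Ac. H3K27Me3 lay at 2661 silent genes, 29.3%, against 26.5% and 24.5%. The difference between silent genes and the rest was thus much larger for H3K4Me1 than for H3K27Me3. Of the silent genes with H3K4Me1, 77.8% also had H3K27Me3, against 25.6% of the genes with H3K27Ac. Of the silent genes with H3K27Me3, 53.1% also had H3K4Me1, and of those with H3K27Me3 in neither list 4.46% did. The rule did not use either mark, but H3K4Me1 and H3K27Ac are both placed at active elements, so their shares are not independent readings of gene activity.

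Some genes lay close to the limits of the rule. The nearest H3K27Ac region was over 4 and up to 5 kb away at 248 genes, just inside the limit, and over 5 and up to 6 kb away at 230. Among silent genes, H3K4Me1 in the farther list was 1 to 2 kb away at 98 and 2 to 3 kb away at 112. For H3K27Me3 these counts were 79 and 61.

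The classes differed in where their genes lie. Genes with neither mark were short, with a median span of 4.64 kb against 19.02 kb with both marks, 15.0 kb with H3K4Me1 alone and 26.8 kb with H3K27Me3 alone. They also lay far from any region of the 6 lists, at a median of 33.9 kb. A direct neighbour of the same class was found at 77.2% of them. This share was 29.0% with both marks, 4.71% with H3K4Me1 alone and 21.0% with H3K27Me3 alone. Genes with neither mark are the largest class, and a larger class gives more such neighbours by its size alone. Genes with H3K4Me1 alone lay closest to acetylated chromatin. Their nearest H3K27Ac region was a median of 14.7 kb away, against 25.6 kb with both marks, 39.8 kb with H3K27Me3 alone and 53.6 kb with neither. Of these 255 genes 45.1% had no silent gene on either side, against 10.4% of the genes with neither mark. The single-mark classes ask that the second mark be absent within 2 kb in both lists, which sets part of its distance. Of the silent genes with H3K27Me3 alone in the female lists, 57.1% were so in the male lists too. A further 18.9% had both marks there. Where H3K27Me3 stood alone the nearest H3K4Me1 region of either list was a median of 24.0 kb away, and where H3K4Me1 stood alone the nearest H3K27Me3 region was 16.7 kb away.

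The median CpG content of the start differed between the classes, though the classes overlapped. The ratio of observed to expected CpGs in the 1 kb around the 5′-most TSS, which is high in CpG islands and low in most of the genome, had a median of 0.605 at genes with both marks, 0.537 with H3K27Me3 alone, 0.309 with H3K4Me1 alone and 0.161 with neither. A ratio of at least 0.6 was found at 51.1%, 42.2%, 12.5% and 1.76% of these classes, and a ratio under 0.4 at 22.5%, 34.5%, 69.0% and 92.0%. At list-dependent genes the median was 0.403. The 9070 silent genes with a value can also be read the other way. Of 1510 silent genes with a ratio of at least 0.6, 47.8% had both marks, 19.2% H3K27Me3 alone, 2.12% H3K4Me1 alone and 6.09% neither. Of 6278 with a ratio under 0.4, 5.07% had both marks and 76.6% neither. As a share of silent genes, H3K4Me1 alone was thus scarce at both CpG-rich and CpG-poor starts, at 2.12% and 2.80%. Set beside the genes with both marks, the bins differed. The counts were 32 with H3K4Me1 alone and 722 with both marks at a ratio of at least 0.6, and 176 and 318 under 0.4.

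**Figure D2:**
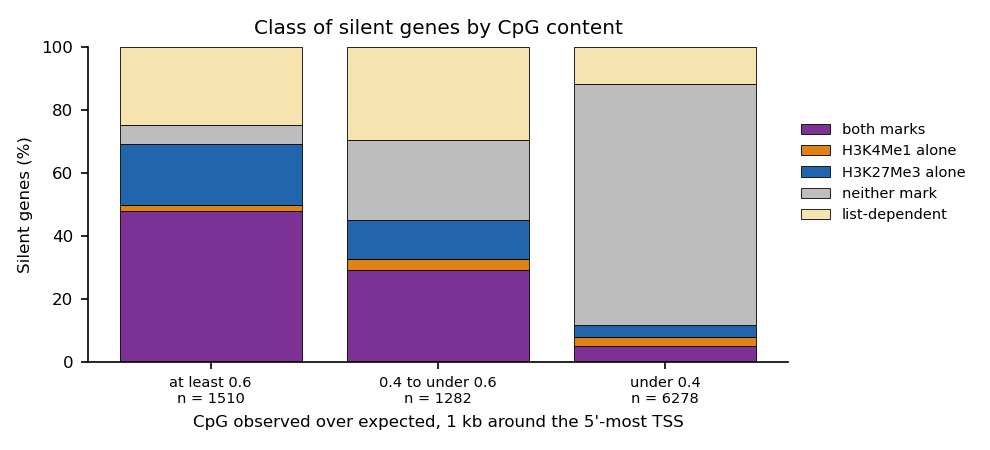
Share of silent genes (%, vertical axis) in each class, in 3 bins of the observed over expected CpG ratio within 1 kb around the 5′-most TSS (n under each bar). The share with both marks is 47.8% at a ratio of at least 0.6 and 5.07% under 0.4.

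At genes with both marks, H3K4Me1 sat over the start and H3K27Me3 reached farther on both sides. The class requires both marks within 2 kb of a TSS. This sets part of the high coverage near the start and of its fall with distance. The 5′-most TSS of these 1412 genes was inside H3K4Me1 at 86.1% in the female list and 86.3% in the male list, and inside H3K27Me3 at 91.8% and 87.4%. Both marks covered it at 82.4% and 79.4%. At 5 kb upstream, H3K4Me1 covered 22.8% and 22.9% of the genes, close to its level at 10 kb, while H3K27Me3 covered 50.2% and 47.2%. At 5 kb downstream the shares were 30.0% and 32.5% for H3K4Me1 and 61.5% and 57.4% for H3K27Me3.

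H3K4Me1 showed no gap over the start of silent genes. Its coverage was highest 0.6 kb downstream of the TSS, at 87.6% (female) and 88.0% (male), and its lowest value within 0.6 kb of the TSS was 79.9% and 81.8%. A TSS inside H3K27Me3 but outside H3K4Me1, with H3K4Me1 on both sides within 5 kb, was found at 33 genes (2.34%) in the female lists and 19 (1.35%) in the male lists. At the 2680 genes with H3K27Ac and both marks, both marks dipped at the TSS. H3K27Me3 fell to 67.8% and 57.9% there from 75.6% and 70.6% at 1.2 and 1.6 kb upstream. H3K4Me1 was at 82.9% and 79.1% at the TSS, against 84.7% and 83.8% upstream and 87.9% downstream in both lists.

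**Figure D3:**
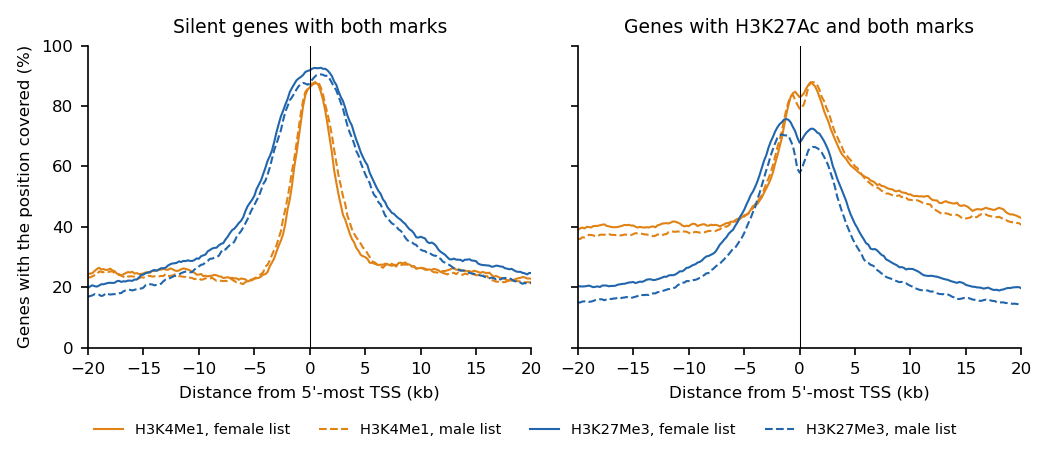
Share of genes (%, vertical axis) whose position at each distance from the 5′-most TSS (kb, horizontal axis, 200-bp steps, transcription to the right) lies inside a region of H3K4Me1 (orange) or H3K27Me3 (blue), female lists solid and male lists dashed; left, 1412 silent genes with both marks, right, 2680 genes with H3K27Ac and both marks. On the left the blue curves are wider than the orange on both sides, while on the right the orange curves lie above the blue beyond 10 kb.

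Region widths showed the same order. At silent genes with both marks, H3K27Me3 regions had a median width of 9.80 kb (female) and 8.80 kb (male) and H3K4Me1 regions 4.80 and 5.40 kb. At genes with H3K27Ac and both marks the order was turned, with H3K27Me3 at 7.00 and 6.00 kb and H3K4Me1 at 7.40 and 8 kb. H3K27Me3 standing alone at a silent gene was narrower than H3K27Me3 with H3K4Me1, at 6.00 kb in both lists. H3K4Me1 standing alone was 4.80 and 5 kb wide, close to its width beside H3K27Me3.

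The edges were then compared directly. For each H3K27Me3 region at a silent gene with both marks, 1456 in the female list and 1457 in the male list, both edges were scored for lying inside an H3K4Me1 region. Only 27.8% of 2912 edges did so in the female lists (26.2 to 29.5) and 30.9% of 2914 in the male lists (29.2 to 32.6). At genes with H3K27Ac the shares were 57.0% of 5734 edges and 59.0% of 5664. The edges of a region are not independent of each other, so these intervals are no test between the groups.

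Taking the outermost H3K4Me1 edge that belongs to each H3K27Me3 region, H3K4Me1 ended a median of 1400 bp (female) and 1200 bp (male) inside the H3K27Me3 edge at silent genes. At genes with H3K27Ac it ended 800 and 1000 bp outside. All overlapping H3K4Me1 lay within the H3K27Me3 region at 52.3% and 47.4% of the silent regions, against 16.5% and 13.3%. H3K4Me1 ran past both edges at 11.3% and 13.5%, against 35.4% and 38.0%. At 6.80% and 8.03% of the silent regions the marks lay within 2 kb of the same gene's TSSs without overlapping.

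**Figure D4:**
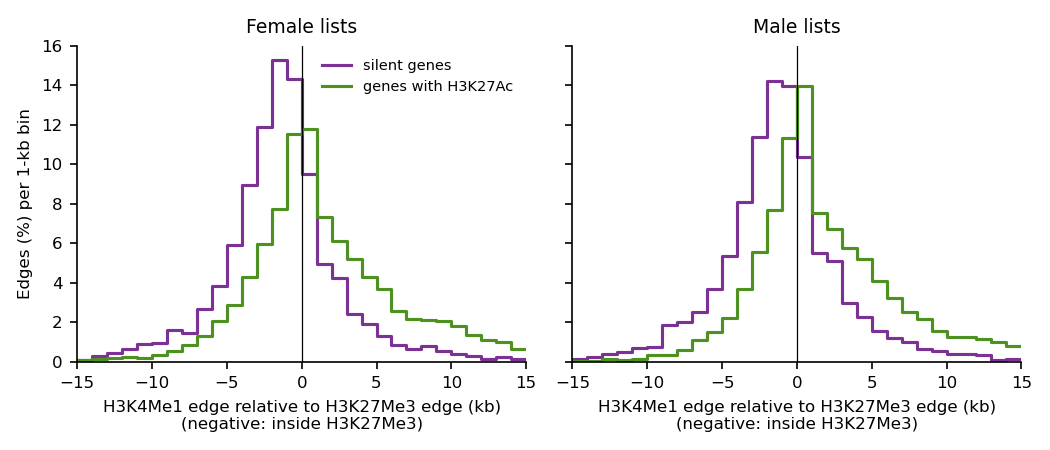
Position of the outermost overlapping H3K4Me1 edge relative to the H3K27Me3 edge (kb, horizontal axis, negative inside H3K27Me3), as the share of edges (%) in 1-kb bins, for genes with both marks; silent genes purple, genes with H3K27Ac green, female lists left and male lists right. The silent distributions peak 1 to 2 kb inside the H3K27Me3 edge in both panels, and those of genes with H3K27Ac within 1 kb of it.

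A wide region can enclose a narrow one more easily, and H3K27Me3 regions were wider at silent genes. H3K27Me3 regions of like width were therefore set side by side. The H3K4Me1 regions, narrower at silent genes with both marks, were not matched in width. The part of H3K4Me1 width in the contrast was not tested. Among H3K27Me3 regions of 6 to 10 kb, all H3K4Me1 lay inside at 61.9% of 420 silent regions (female) and 57.5% of 440 (male), against 22.1% and 17.9% at genes with H3K27Ac. Among silent regions under 4 kb the order turned. H3K4Me1 ended a median of 200 and 600 bp outside these narrow H3K27Me3 regions, and lay wholly inside at 12.4% and 8.33%. In the widest silent regions, over 20 kb, it ended 3400 and 4100 bp inside.

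Read from the other mark, 80.9% (female) and 76.5% (male) of the edges of H3K4Me1 regions at silent genes with both marks lay inside H3K27Me3, and 67.0% and 59.3% of these H3K4Me1 regions lay wholly inside it. At genes with H3K27Ac 22.1% and 16.2% did. The nesting was stronger at CpG-rich starts. At a ratio of at least 0.6, all H3K4Me1 lay inside H3K27Me3 at 56.9% and 54.9% of the regions, against 39.8% and 32.7% at a ratio under 0.4. H3K27Me3 was also wider at the CpG-rich starts, with medians of 11.0 and 10.2 kb against 8.80 and 7.60 kb.

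At 987 silent genes each mark had exactly 1 region in each list and the marks overlapped, so that edges could be followed by strand and between lists. Genes that share a region were each counted. Upstream of the TSS, H3K4Me1 ended a median of 1774 bp (female) and 2002 bp (male) away and H3K27Me3 4495 and 4083 bp away. Downstream, H3K4Me1 ended at 2756 and 3162 bp and H3K27Me3 at 5844 and 5572 bp. Both marks thus reached farther into the gene than upstream of it, and the distance between their edges was similar on both sides. A region could lie at any annotated TSS of a gene, and later TSSs lie downstream of the 5′-most one. The part of this in the longer downstream reach was not tested. Per gene, the H3K4Me1 edge lay inside the H3K27Me3 edge by a median of 2400 and 2000 bp upstream and 2600 and 2200 bp downstream.

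At 1215 genes with H3K27Ac chosen in the same way, H3K4Me1 ended 800 and 200 bp inside upstream and 600 and 1400 bp outside downstream. The silent genes were inside on both sides in both lists at 543 of 987, 55.0%, against 13.6% with H3K27Ac, and outside on both sides in both lists at 13, 1.32%, against 13.8%. The position of one edge differed between the female and the male list by a median of 600 bp for H3K4Me1 and 1200 bp for H3K27Me3. The distance between the edges of the marks differed by a median of 1600 bp, and by 2000 bp at genes with H3K27Ac. The sign of the distance was the same in both lists at 81.3% of the silent edges and 76.3% of those at genes with H3K27Ac.

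Developmental regulators carried the arrangement in its widest form. Of 102 silent developmental transcription factors 86 had both marks, 84.3% against 15.6% over all silent genes, 5 had H3K27Me3 alone, 10 were list-dependent and none had H3K4Me1 alone. At the 86 the widest H3K27Me3 region at the start had a median of 26.4 kb (female) and 26.6 kb (male), against 11.0 and 10.0 kb over all silent genes with both marks. H3K4Me1 was 8.10 and 9.10 kb wide, against 5.20 and 5.80 kb. All H3K4Me1 lay inside H3K27Me3 at 72.6% and 72.3% of their regions.

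Gata6, a factor of endoderm and heart, had 8.20 kb (female) and 9.80 kb (male) of H3K4Me1 over its TSS inside 18.6 and 21.0 kb of H3K27Me3. H3K4Me1 began 4.91 and 6.11 kb upstream and H3K27Me3 8.31 and 8.71 kb upstream. Cdx2, which sets trophoblast and hindgut fate, had 11.2 and 12.6 kb of H3K4Me1 inside 30.4 and 24.6 kb of H3K27Me3. Wt1, a regulator of kidney and gonad, had 14.0 and 16.2 kb inside 28.4 and 29.8 kb. At these 3 genes the order was the same on both sides of the TSS in both lists.

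Among regulators of the heart and mesoderm, Mesp1 had 3.40 and 5.60 kb of H3K4Me1 inside 13.6 and 18.2 kb of H3K27Me3. Hand1 had 16.2 and 13.6 kb against 26.4 and 21.0 kb, and in its male lists H3K4Me1 ran past the downstream H3K27Me3 edge, at 11.3 kb against 9.92 kb. Nkx2-5 had 2 H3K4Me1 regions in each list, the main one 7.40 and 8.80 kb wide, under H3K27Me3 of 30.2 and 26.2 kb. In the male list the downstream edges of both marks at Nkx2-5 fell on the same step, 7.71 kb from the TSS. At Gata4 the H3K4Me1 region ended 27.9 and 28.1 kb downstream of the 5′-most TSS, at another annotated TSS, within H3K27Me3 of 48.8 and 38.6 kb.

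At all 10 list-dependent regulators of this list H3K27Me3 was in both lists and H3K4Me1 in 1 of them. Isl1, Neurog1 and Pax3, which act in heart, neuron and neural crest formation, had H3K4Me1 of 6.80, 7.00 and 10.0 kb in the male list and none within 2 kb in the female list. Sox17, a factor of endoderm, had 2.80 kb in the female list and none in the male. The H3K27Me3 regions of these 4 genes were between 14.0 and 41.4 kb wide. The regulators with H3K27Me3 alone included Lmx1a, Tbx18 and Tcf21. Lmx1a, a factor of midbrain dopamine neurons, had 12.6 and 11.4 kb of H3K27Me3. Tbx18, a T-box factor of the heart and its outer layer, had 21.8 and 23.0 kb, and its nearest H3K4Me1 region was 6.71 kb away in both lists.

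The widest H3K27Me3 lay over the Hox clusters, whose genes set position along the body. Of 40 annotated Hox gene models 35 were silent, 29 with both marks (82.9%), 5 list-dependent and 1, Hoxd1, with H3K27Me3 alone (Hoxa3 is annotated as 2 models). Since a single H3K27Me3 region spanned most of a cluster, the 29 genes shared 4 regions in each list and are not separate cases. Hoxa10 lay in a region of 141.6 kb (female) and 141.2 kb (male), Hoxc10 in 141.0 and 145.4 kb, Hoxb1 in 139.4 and 144.2 kb, and Evx2, the neighbour of the Hoxd genes, in 113.4 and 124.0 kb. H3K4Me1 lay in these domains as separate shorter regions, 6.20 and 6.40 kb at Hoxc10 and 5.20 and 9.20 kb at Hoxb1. The widest regions outside them were at Bcan, a brain proteoglycan, Lmx1b, a limb and midbrain factor, and the homeobox genes Nkx1-1 and Dmbx1, with H3K27Me3 between 57.6 and 103 kb.

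Signalling ligands followed in part. Of 16 silent Wnt genes 14 had both marks, 87.5% against 15.6% of all silent genes, and 2, Wnt2 and Wnt8b, had H3K27Me3 alone. Wnt1 had 8.60 and 11.4 kb of H3K4Me1 in 47.6 and 47.0 kb of H3K27Me3, which it shares with its neighbour Wnt10b. Of 11 silent Bmp and Gdf genes 5 had both marks (45.5%), Bmp2, Bmp3, Bmp6, Bmp8b and Gdf6, and Gdf1 had H3K4Me1 alone. Of 9 silent Fgf genes 4 had both marks (44.4%), Fgf3, Fgf9, Fgf14 and Fgf23, while Fgf1 and Fgf22 had H3K4Me1 alone and Fgf6 and Fgf12 H3K27Me3 alone.

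Genes that work in differentiated cells were split over the classes. Of 70 silent potassium channel gene models 29 had both marks, 41.4% against 15.6% of all silent genes, 2 had H3K4Me1 alone, 8 H3K27Me3 alone, 16 neither (22.9% against 57.6%), and 15 were list-dependent. Of 70 silent receptors for neurotransmitters 17 had both marks (24.3%), 14 H3K27Me3 alone, 1, Chrna6, H3K4Me1 alone, 11 neither, and 27 were list-dependent, 38.6% against 16.4% of all silent genes. Those with H3K27Me3 alone included the GABA receptor subunits Gabra4 and Gabra5, and those with both marks Chrm1, Chrna10, Chrna4 and Drd4.

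Of 16 silent genes of the heart muscle 5 had both marks, 31.2% against 15.6% of all silent genes, among them the calcium release channel Ryr2, the muscle creatine kinase Ckm, the myosin heavy chain Myh7 and the troponin Tnnt2. Here nesting was rare, since all H3K4Me1 lay inside H3K27Me3 at none of 5 regions in the female lists and 1 of 6 in the male lists, against 52.3% and 47.4% over all silent regions. At Tnnt2 H3K4Me1 was 2.20 and 3.00 kb wide and H3K27Me3 1.20 and 2.60 kb. Nppb had H3K4Me1 alone, 4 and 6.80 kb wide, Actn2 and Myh6 had H3K27Me3 alone, and the 5 genes Actc1, Cox6a2, Myoz2, Pln and Ttn had neither.

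Large families of receptor and structural genes were almost wholly unmarked. Neither mark was found at 995 of 1017 silent olfactory receptors (97.8%), 308 of 309 vomeronasal receptors, 32 of 32 bitter taste receptors, 42 of 44 keratin-associated proteins and 45 of 49 defensins. None of these 1451 genes had both marks. They gave 1422 of the 5226 unmarked genes, 27.2%, and without them 3804 of 7621 silent genes, 49.9%, had neither mark. Their copies are alike in sequence and sit in clusters, so that reads may be hard to place, and the part of this in the missing marks was not tested. Other gene groups stood nearer the shares over all silent genes, 57.6% with neither mark and 15.6% with both. Among 74 silent cytochrome P450 genes 54 had neither mark (73.0%) and 6 both (8.11%). Those with both included Cyp26a1, Cyp26b1 and Cyp26c1, which degrade retinoic acid, besides Cyp24a1, Cyp2w1 and Cyp46a1. Of 38 silent keratins 26 had neither mark (68.4%) and 2, Krt1 and Krt19, both (5.26%). Of 39 silent immune cell genes 18 had neither mark (46.2%) and 5 both (12.8%), Cd4, Cd72, Elane, Il13 and Zap70. Of 26 silent genes for proteins secreted by the liver 14 had neither mark (53.8%) and 2, Apoa1 and Rbp4, both (7.69%).

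Germ cell genes stood apart from the developmental regulators. Of 25 silent members 7 had H3K27Me3 alone, 28.0% against 7.57% of all silent genes, 10 had neither mark and 2, Smc1b and Tdrd6, had both. Those with H3K27Me3 alone were Ddx4, Figla, Mov10l1, Prm1, Slc25a31, Sycp2 and Tex101. Figla, an oocyte transcription factor, had 12.8 and 13.4 kb of H3K27Me3, and Ddx4, the germ cell helicase Vasa, 3.80 and 6.20 kb. Stra8, which is induced by retinoic acid at the start of meiosis, had H3K4Me1 alone, 3.80 and 5.40 kb. Among the 10 with neither mark, Asz1, Dazl, Mael and Sycp3 had CpG ratios of 0.606, 0.737, 0.688 and 0.653, which lie in the range where 6.09% of silent genes had neither mark.

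The 255 genes with H3K4Me1 alone were few in every gene list, as they were over all silent genes (2.81%). No list held more than 3 of them. Their share of the silent members ran from 0 in many lists to 22.2%, 2 of 9 silent Fgf genes. It was 4.05%, 3 of 74, for the cytochromes P450. The widest H3K4Me1 of this class was at Fat1, a large cadherin, 62.4 kb in the female list and 64.8 kb in the male list, reaching 58.0 and 61.6 kb downstream of the TSS. Its nearest H3K27Me3 region was 15.4 and 8.56 kb away. Of the other genes named by the rule, Npb, a neuropeptide, had 29.2 and 29.0 kb, and Rinl, Gigyf1 and Slc4a9 had widths between 20 and 24.4 kb. Avil, advillin, had 21.6 kb in both lists, and its H3K4Me1 lay almost wholly upstream of the TSS (20.8 and 20.6 kb). Wide H3K4Me1 of this kind did not have acetylated chromatin within 5 kb of an annotated TSS, but the rule does not look for acetylation farther along the region.

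Ranked by the narrower of the 2 lists' widths, the widest region among genes with H3K27Me3 alone was at Ugt1a1, an enzyme that conjugates bilirubin, 55.2 and 58.4 kb, lying downstream of its TSS. In a single list Otop3 reached 74.8 kb (female, 7.80 kb in the male list) and Hoxd1 124.0 kb (male, 7.20 kb in the female list). The Ugt1a genes share exons and overlap, so that the region cannot be given to Ugt1a1 alone. Foxe3, a lens factor, had 47.2 and 34.6 kb, with H3K4Me1 no nearer than 15.3 and 15.5 kb. Kncn, Elovl3 and Gprin1 had between 23.2 and 37.0 kb, with H3K4Me1 within 4 kb in at least 1 list. At Elovl3, a fatty acid elongase, H3K4Me1 lay 3.01 and 2.81 kb from a TSS, just outside the limit of the class.

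A few genes had the order turned, and they were far fewer than the nested ones. Among the 987 genes with single regions, H3K4Me1 lay farthest outside H3K27Me3, averaged over the lists, at Oxct2a, Nxph4, Pou2f3 and Bin2. Nxph4, a neurexophilin, had H3K4Me1 of 37.0 and 36.6 kb over H3K27Me3 of 16.8 and 18.6 kb. At Bin2 the lists differed, with H3K4Me1 of 30.4 kb in the female list and 7.60 kb in the male list beside H3K27Me3 of 7.60 and 9.20 kb. The order was turned at Bin2 in the female list, while in the male list H3K4Me1 lay inside H3K27Me3. H3K4Me1 lay farthest inside at Hoxa3, Hoxc9, Hoxc10 and Hoxa5. Genes of a Hox cluster share H3K27Me3 regions, so these are not separate cases. At Hoxa3 H3K4Me1 was 2.80 and 3.20 kb wide and both H3K27Me3 edges were at least 69.5 kb from the TSS in both lists.

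The female and the male lists differed more over H3K4Me1 than over H3K27Me3 at silent genes. H3K4Me1 was in both lists at 1814 silent genes, in the female list alone at 552 and in the male list alone at 391, so that 65.8% of the genes with H3K4Me1 in any list had it in both. At genes with H3K27Ac this share was 91.3%. H3K27Me3 was in both lists at 2661 silent genes, in the female list alone at 473 and in the male list alone at 219, a share of 79.4%, against 65.5% at genes with H3K27Ac. The female lists alone gave 1930 silent genes with both marks and the male lists 1696. Of the 1930, 73.2% had both marks in the male lists too and 17.4% had H3K27Me3 alone there.

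The female lists are longer, so the lists of a mark were also cut to equal numbers of their widest regions. H3K4Me1 was then in the female list alone at 463 silent genes and in the male list alone at 523, which turned the order. H3K27Me3 was in the female list alone at 422 and in the male list alone at 258, which kept it. Each list stands for both lines of a sex with no value per line, and list length moves with sex, so that sex, line and depth cannot be told apart here.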

How the data were processed

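H3K4Me1, H3K27Me3 and H3K27Ac were measured by ChIP-seq in 16 libraries of female and male ES cells, IgG and input included. According to the methods, the authors aligned single-end reads to mm9 with Bowtie2 and used Bedtools to measure enrichment. Bowtie and deepTools are named in the processing notes of the submitters. Which program and threshold made the regions, whether IgG and input entered, and how the lines of a sex were joined: for these steps the sources used here give nothing. The deposited lists hold neither scores nor counts, and the authors' files give coordinates alone, on a grid of 200 bp, 1 list per sex and mark. IgG and input have no list and were not used here.

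Genes, TSSs and sequence came from NCBIM37 (mm9) and its GENCODE annotation, and the start of a transcript was taken as a TSS. Distances, classes, edges and coverage were computed in Python 3.11.15 with numpy 2.4.6 and scipy 1.17.1, and figures with matplotlib 3.10.9. A silent gene had no H3K27Ac within 5 kb of any TSS, and a mark was present within 2 kb in both lists. The CpG ratio is the count of CG times the length over the product of the C and G counts in the 1 kb around the 5′-most TSS. The steps were tested on simulated regions. With 1 list per sex and mark no test was run, and the shares carry 95% exact binomial intervals. In place of a set test, the class counts of a gene list stand beside those of all silent genes.

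The members, gene lists and comparisons were chosen with earlier results of these data known. Genes were named by rule: the widest regions of each class (8, 6 and 6 genes, 1 per region), the silent genes of a list of example regulators, the 4 genes with H3K4Me1 farthest outside and the 4 farthest inside, and up to 4 members per list and class in alphabetical order. Further members named in lists, and the CpG-rich germ cell genes, were chosen after their values were seen. Clone and predicted names were counted but not named, and a few other members are not reported here by name. The alternatives changed the distances, the TSS used, the regions kept, the agreement asked of the lists and the CpG window.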

Additional observations from a re-analysis of the deposited data

How the results depend on the processing

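No paired analysis was possible because each list stands for both lines of a sex and no value per line was given. For the same reason no line was left out.

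Of 220 alternative values for 47 results, 133 stayed within 1.5 times of a count or inside the 95% interval of a share or median, 86 moved and 1 reversed. The order of silent genes against genes with H3K27Ac was the same under every edge alternative: edges of H3K27Me3 inside H3K4Me1 ranged from 18.96% to 38.5% at silent genes and from 46.1% to 65.1% with H3K27Ac, and regions with all H3K4Me1 inside from 32.0% to 61.9% and from 8.13% to 22.1%. The number of silent genes stayed within 1.5 times under every alternative. The causes of the moves below were not tested, other than those the alternative sets by construction.

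Class counts moved as follows. With the widest 50% of each list, 907 genes had both marks, 779 H3K4Me1 alone, 1529 H3K27Me3 alone and 2622 were list-dependent. That halving drops H3K27Ac regions too, so that more genes count as silent. With a mark in either list the counts were 2264, 493 and 1089. With the female list alone 436 had H3K4Me1 alone and 1204 H3K27Me3 alone, and with the male list alone 509 and 1184.

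At silent genes the share of H3K27Me3 edges inside H3K4Me1 (female, male) was 18.96% and 21.3% where H3K4Me1 had to run on for 1 kb, 37.2% and 38.5% with the widest 50%, 22.1% and 24.9% for regions of 6 to 10 kb, 25.8% and 27.6% for regions over the 5′-most TSS, and 29.8% and 33.6% for regions that overlap H3K4Me1. All H3K4Me1 lay inside at 54.9% (female) with marks within 1 kb, 44.7% and 40.9% within 5 kb, 34.2% and 32.0% with the widest 50%, 61.9% and 57.5% at 6 to 10 kb, 59.8% and 57.1% over the TSS, and 56.2% and 51.5% with overlap. The median H3K4Me1 edge was at -1000 and -800 bp with the widest 50% and at -1800 and -1600 bp over the TSS. The last 3 kinds of region were added after the data were seen, as was leaving out the receptor, keratin-associated and defensin families.

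Over every distinct TSS of a gene, H3K4Me1 covered 69.9% and 68.7% and H3K27Me3 76.1% and 70.4%, and with the widest 50%, 82.1% and 81.6%, and 88.8% and 84.1%. The median CpG ratio was 0.530 (2 kb) and 0.643 (500 bp) with both marks, 0.464 (2 kb) with H3K27Me3 alone and 0.165 (500 bp) with neither.

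With marks within 1 kb, 3 heart muscle genes, 3 immune cell genes and 1 keratin had both marks. Within 5 kb it was 1 olfactory receptor, 1 defensin and 4 germ cell genes, and with a mark in either list 34 transmitter receptors, 2 olfactory receptors, 1 defensin, 6 liver and 6 germ cell genes. With equal numbers of regions the ratio of female-only to male-only silent genes for H3K4Me1 reversed, from 1.41 to 0.885.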

Other observations

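Of the 1510 silent genes with a CpG ratio of at least 0.6, 92 had neither mark in any of the 4 lists of H3K4Me1 and H3K27Me3. Clone or predicted names made up 40 of them. The 52 others, which were picked out after their values were seen, are not a list of tissue genes alone. Besides the germ cell genes Asz1, Dazl, Hfm1, Mael and Sycp3 they held genes that act in most cell types, among them Pik3c3, a kinase of autophagy, Sel1l, which works in the turnover of proteins of the endoplasmic reticulum, and Kif3a, Ift57 and Bbs4, which serve the cilium. For genes of this second kind a missing H3K27Ac region need not mean a silent gene, and RNA was not analysed here. The CpG ratio was 0.904 at Hfm1, a helicase of meiosis, 0.784 at Sel1l, 0.724 at Pik3c3 and 0.709 at Kif3a. Both marks lay just outside the 2 kb limit at Kif3a, with H3K4Me1 at 2.55 kb and H3K27Me3 at 2.48 kb from a TSS, and near it at Sel1l, at 2.57 and 3.20 kb. At Hfm1 and Pik3c3 the nearest region of either mark was at least 29.0 kb away.

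Chromosomes differed in their share of silent genes and in the classes. Silent genes made up 52.0% of the genes of chromosome 14, where 7.66% of them had both marks, and 36.0% of those of chromosome 11, where 22.5% had both marks. These were the highest and the lowest share of silent genes among the 19 autosomes, and the lowest and the highest share with both marks.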
